A study of Bos grunniens with 24 samples.

Results

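B3GNT6, TFF1 and ITLN2 are 3 genes of mucus and of secreted lectins, and they were chosen by their symbols from a table of 639 genes measured by RNA sequencing in the jejunum of yak calves. Each of the 639 genes was called by the authors in at least 1 of 3 comparisons, and so were these 3, which means that the measured differences themselves brought them into the table. The 24 libraries form 3 groups of 8. PET calves received Pediococcus pentosaceus NQ0729, a lactic acid bacterium, and then a challenge with enterotoxigenic Escherichia coli (ETEC), which causes diarrhoea. ETEC calves received the challenge without the pretreatment, and CON calves were the controls. Pretreatment was given only with the challenge, so PET compared with CON differs by both agents. The sources used here do not state age, sex, dose or position along the jejunum. The samples are labelled as replicate biosamples with no animal named, so a p-value measures only how far these samples spread, which may be technical.

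The surface of the gut is covered by mucus, a gel of heavily glycosylated mucins that goblet cells secrete together with trefoil peptides and lectins. B3GNT6 is the glycosyltransferase that makes the core 3 O-glycan of mucins, and in human and mouse it is expressed mainly in the colon. TFF1 is a trefoil peptide secreted with mucin, in human and mouse chiefly by surface mucous cells of the stomach. ITLN2 is an intelectin, a secreted lectin family that binds glycans of microbial surfaces, and in sheep intelectin 2 is induced in the abomasal mucosa by nematode infection.

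In the authors' table B3GNT6 (ENSBGRG00000018932) lies on chromosome 13 from 7052108 to 7074441 on the plus strand. TFF1 (ENSBGRG00000017683) lies on chromosome 1 from 155557580 to 155563082 on the minus strand, and ITLN2 (ENSBGRG00000000698) on chromosome 3 from 8885950 to 8891485 on the minus strand. The sources used here name no genome build for these positions. Intelectin genes have near-identical copies in several mammals, and how reads shared between copies were counted is not stated, so the values of ITLN2 may hold reads of a relative.

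Libraries of a group were unlike in depth, in their relation to each other and in the level of tissue marker genes. Summed counts of the listed genes were 475295 to 1209769 in PET, 466708 to 863801 in ETEC and 299776 to 826249 in CON. For each of the 24 libraries, the values of 508 other genes were compared with pairs of other libraries added with weights. All pairs were tried, whatever their group. In 10 libraries the residual of the best pair was between 0.254 and 0.703 of that left by the best single library. Both libraries of that pair were then of the same group as the library itself. These 10 libraries are called close to a sum here, which refers to this ratio only. These were PET-1 to PET-3, ETEC-1 to ETEC-4 and CON-1 to CON-3, where the number is the replicate number of the label. For the other 14 libraries the residual was between 0.849 and 1 of that of the best single library. Results are therefore given for all 24 libraries and for these 14, which are 5 PET, 4 ETEC and 5 CON libraries. Marker genes of the tissue differed as well. Of 25 enterocyte brush border genes 16 are in the table, and their summed level ran from 42.5 to 2470 FPKM in PET, from 45.9 to 71.2 FPKM in ETEC and from 50.3 to 1240 FPKM in CON. As all genes of the table were called by the authors, a difference between groups in these 16 is no separate result. FPKM is the number of fragments scaled by gene length and by the mapped fragments of the library.

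B3GNT6 was called lower in PET than in ETEC, with an adjusted p of 2.64e-06 at a log2 fold change of -6.42 in the authors' deposited table. It was also called lower in PET than in CON in the authors' deposited table (-6.30, adjusted p = 1.42e-07). The authors' deposited table called TFF1 higher in ETEC than in CON (log2 fold change 1.47, adjusted p = 0.0109). It called ITLN2 higher in PET than in ETEC (3.36, adjusted p = 0.0458 in the authors' deposited table), which is close to the largest adjusted p among all of the table's calls, 0.0493. These values chose the genes and are given as a description. The call of 1 of the 3 genes in ETEC compared with CON stands beside 77.1% of the genes with a value there in the authors' deposited table, and 32.3% called higher. The 2 of 3 genes called in PET compared with ETEC stand beside 40.5% in the authors' deposited table, made up of 31.0% higher and 9.56% lower. In PET compared with CON, where TFF1 has no value, the call of 1 of the other 2 genes stands beside 32.8%, with 13.5% lower, in the authors' deposited table. No more can be read from these shares, since being called decided which genes the table holds.

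B3GNT6 was either nearly absent or strongly expressed, with no library in between. In 6 libraries it was between 45.6 and 96.9 FPKM, and in the other 18 it was between 0.171 and 0.874 FPKM. The empty interval between 0.874 and 45.6 FPKM is a 52.2-fold step. Of the 446 genes of the table with a mean of at least 1 FPKM, 7 had a larger step between neighbouring libraries, and B3GNT6 ranked 8. In reads, the high libraries held 1978 to 4629 counts for this gene and the low ones 7 to 39, so the low level was above 0 in every library.

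The 6 high B3GNT6 libraries were spread over ETEC and CON and included no PET library. PET libraries ran from 0.202 to 0.435 FPKM with a median of 0.329. ETEC libraries ran from 0.171 to 96.9 FPKM with a median of 0.357, and ETEC-1, ETEC-3 and ETEC-6 were high at 51.1, 76.0 and 96.9 FPKM. CON libraries ran from 0.309 to 88.2 FPKM with a median of 0.825, and CON-3, CON-4 and CON-8 were high at 45.6, 78.5 and 88.2 FPKM. Most libraries of ETEC and CON thus lay at a level of the same order as PET, and the groups overlapped in that range. The means were 0.331 ± 0.0677 FPKM in PET, 28.2 ± 40.4 FPKM in ETEC and 26.9 ± 38.2 FPKM in CON (SD, n = 8 each), with an SD above the mean in the groups that held high libraries. In bulk tissue, fewer cells of a type and less RNA per cell cannot be told apart, and this holds for every level given here.

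**Figure D1:**
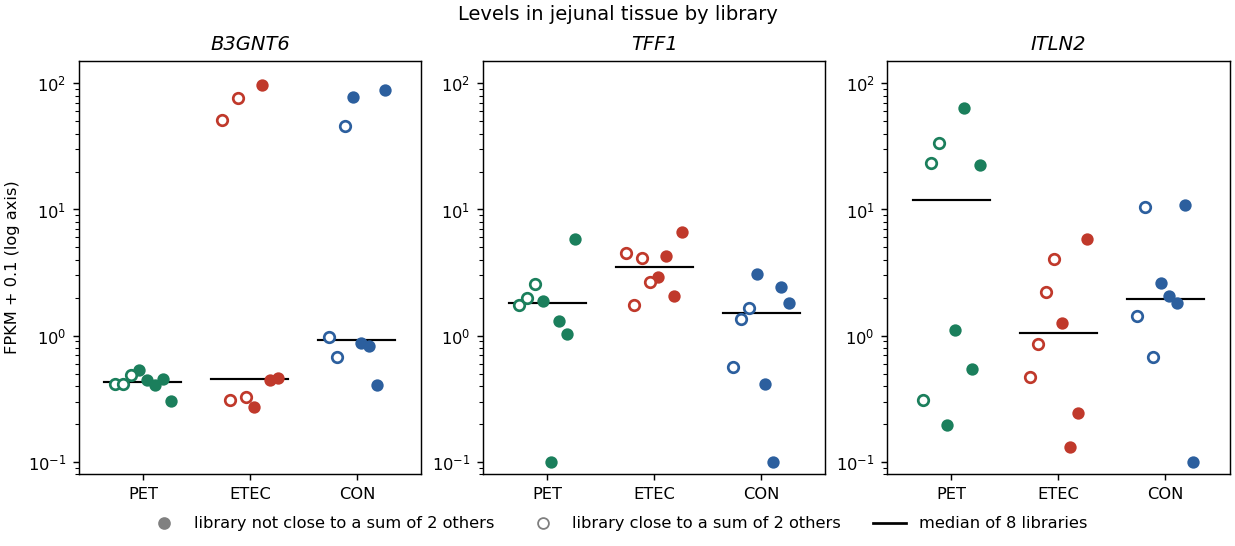
FPKM + 0.1 of B3GNT6, TFF1 and ITLN2 in each of the 24 libraries on a log axis, with PET, ETEC and CON from left to right, lines at the medians of 8 libraries and open points for libraries close to a sum of 2 others. B3GNT6 has 6 libraries at 45.6 FPKM or more, 3 of ETEC and 3 of CON, and 18 below 1 FPKM. Over the 24 libraries together, TFF1 and ITLN2 spread without such a step.

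Among the low libraries B3GNT6 was not uniform either. In CON the 5 low libraries had 0.874, 0.576, 0.777, 0.724 and 0.309 FPKM (CON-1, CON-2, CON-5, CON-6 and CON-7). All CON libraries but CON-7, or 7 of 8, lay above every PET library, and 2 PET libraries lay below every CON library. Between PET and ETEC the low values were interleaved, with 0 PET libraries below all of ETEC and 1 ETEC library below all of PET. Among low libraries, those of CON other than CON-7 thus lay above PET, whereas those of ETEC did not. PET against CON is a contrast that chose the gene, so this order is a description only. It rests on few reads, with 9 to 39 counts in the low CON libraries and 8 to 23 in PET.

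Several high libraries were close to a sum that includes another high library, so they may not be independent. ETEC-1 was close to a sum of ETEC-5 and ETEC-6 with weights of 0.450 and 0.561, and the level of B3GNT6 computed from those 2 libraries was 54.5 FPKM, against 51.1 FPKM measured. ETEC-3 was close to a sum of ETEC-6 and ETEC-8, with 77.9 FPKM computed and 76.0 FPKM measured. CON-3 was close to a sum of CON-4 and CON-6, with 38.0 FPKM computed and 45.6 FPKM measured. The gene itself was not used to find the weights. Over all 10 such libraries the ratio of measured to computed level had a median of 0.957 for B3GNT6 (0.607 to 1.60), 0.962 for TFF1 (0.575 to 3.56) and 0.973 for ITLN2 (0.262 to 1.43). In each of the 3 sums with high B3GNT6, 1 source library was high and the other low. Among the 14 libraries that were not close to a sum, B3GNT6 was high in 0 of 5 PET, 1 of 4 ETEC and 2 of 5 CON libraries, and those were ETEC-6, CON-4 and CON-8.

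**Figure D2:**
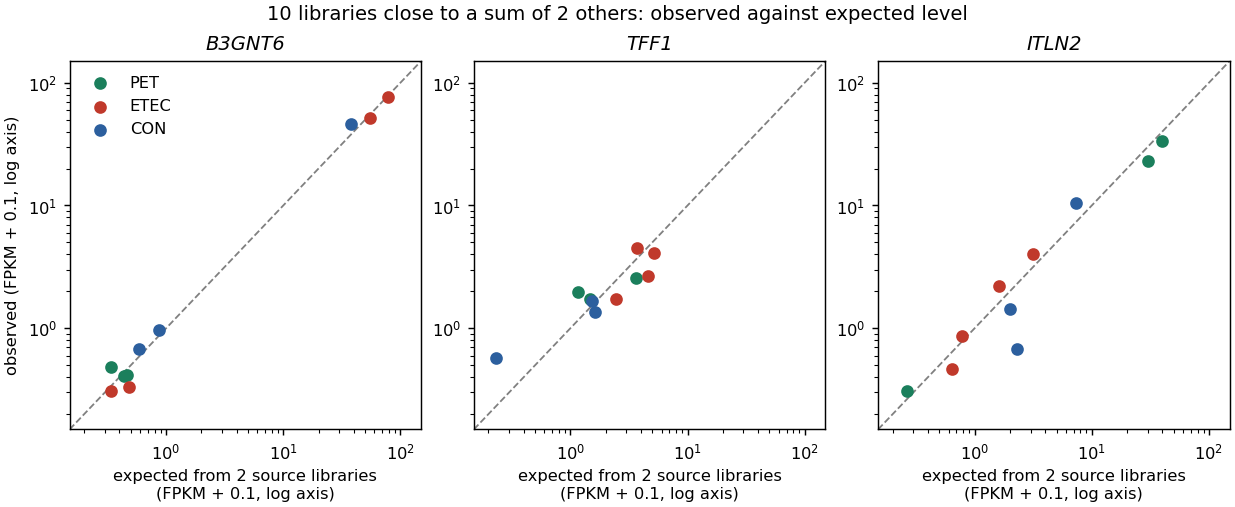
Measured FPKM + 0.1 against the value computed from the 2 source libraries, for the 10 libraries close to a sum, on log axes, with PET, ETEC and CON marked by colour. Points on the dashed diagonal have equal values, and the high levels of B3GNT6 in ETEC-1, ETEC-3 and CON-3 lie near it.

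The log2 fold change of B3GNT6 was -6.40 ± 1.60 in PET over ETEC and -6.33 ± 1.60 in PET over CON (SE, n = 8 each), which are the contrasts that chose the gene. With the 14 libraries these values were -6.20 ± 2.10 and -6.67 ± 2.12 (SE). They depended on how low values were weighted, since on the log2(FPKM + 1) scale they were -2.12 and -2.33. Over all 24 libraries each rests on 3 high libraries of the group that PET is set against. In the 14 libraries the values rest on 1 high ETEC library and on 2 high CON libraries.

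ETEC compared with CON did not bring B3GNT6 into the table. The authors had not called it there on the same counts (adjusted p = 0.964 in the authors' deposited table). A test of this contrast here is thus not independent of theirs. The log2 fold change was 0.07 ± 1.26 (SE, n = 8 each), with an adjusted p of 0.964 in edgeR's quasi-likelihood test over the 577 genes tested. The direction was not stable, at -0.55 without ETEC-6 and 0.63 without CON-8. A 2-fold difference in either direction lies within 1 SE of this value.

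TFF1 was a gene of low level in all groups, with 0 to 55 counts per library. PET libraries ran from 0 to 5.69 FPKM with a median of 1.71. ETEC libraries ran from 1.65 to 6.58 FPKM with a median of 3.42. CON libraries ran from 0 to 2.99 FPKM with a median of 1.42. No TFF1 reads were counted in PET-5 and CON-6, where 3 counts, the limit set here for a count of 0, would be 0.360 and 0.473 FPKM. Such limits and the counting intervals cover counting error only.

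In ETEC, TFF1 was present in every library, and 4 of the 8 ETEC libraries (ETEC-1, ETEC-3, ETEC-6 and ETEC-8, at 4.43, 4.04, 4.17 and 6.58 FPKM) lay above all CON libraries. Of the CON libraries 5 lay below all of ETEC, while CON-4, CON-7 and CON-8, at 2.99, 2.33 and 1.72 FPKM, lay within the range of ETEC. The mean was 3.53 ± 1.61 FPKM in ETEC and 1.33 ± 1.04 FPKM in CON (SD, n = 8 each). The log2 fold change of ETEC over CON, which chose the gene, was 1.40 ± 0.63 (SE), and 1.39 ± 1.09 (SE) with the 14 libraries.

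TFF1 in PET lay between ETEC and CON in its median and was not shown to differ from either. PET averaged 1.95 ± 1.68 FPKM (SD, n = 8), and its highest library, PET-8 at 5.69 FPKM, lay above all CON libraries. Another 4 of the PET libraries were below the lowest ETEC library. The log2 fold change of PET over ETEC was -0.85 ± 0.61 (SE, adjusted p = 0.269, edgeR), and that of PET over CON was 0.55 ± 0.63 (SE, adjusted p = 0.512, edgeR). The value for PET over CON was 0.09 without PET-8, with an adjusted p of 0.933 in edgeR.

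Enterocyte genes ran against the level of TFF1 at the ends of its range, with exceptions between. The 4 libraries with the least TFF1, CON-6, PET-5, CON-5 and CON-1 at 0 to 0.469 FPKM, had summed levels of the 16 brush border genes of 743, 2470, 1240 and 1085 FPKM. In ETEC, where TFF1 was present throughout, the sum was between 45.9 and 71.2 FPKM. PET-1 and PET-4 went against this order, with 1.64 and 1.78 FPKM of TFF1 and brush border sums of 1809 and 1966 FPKM. In CON-4, CON-7 and CON-8 the sums were 50.3, 50.3 and 54.1 FPKM, within or near the range of ETEC, and there TFF1 was 1.72 to 2.99 FPKM. ANPEP, the aminopeptidase N of the brush border, had counts in every library, while the carboxypeptidase gene CPO was at 0 in 4 ETEC libraries and 1 CON library. The part of enterocyte content in the level of TFF1 was not tested.

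**Figure D3:**
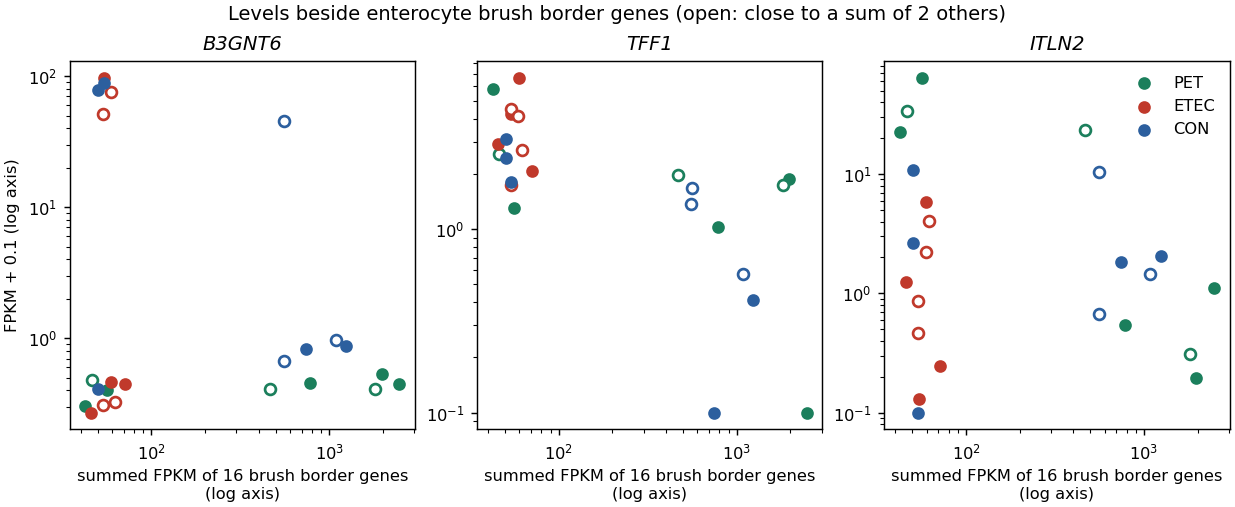
FPKM + 0.1 of each of the 3 genes against the summed FPKM of 16 brush border genes in the 24 libraries, both on log axes, with PET, ETEC and CON marked by colour and open points for libraries close to a sum of 2 others. The libraries with the least TFF1 lie at sums of 743 FPKM or more, the highest ITLN2 values of PET lie at 42.5 to 466 FPKM, and 1 high B3GNT6 library, CON-3, lies at 558 FPKM while the other 5 lie at 50.3 to 59.4 FPKM.

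The genes whose pattern was most like that of TFF1 were SCTR, ONECUT2 and ENPP3. Likeness was the number of libraries in which 2 genes lay on the same side of their own midrange, the midpoint between the lowest and the highest value on the log2(FPKM + 0.1) scale, with ties ordered by the distance of standardized values. All 3 were on the same side as TFF1 in 24 of 24 libraries, and in 14 of 14 among the libraries not close to a sum. A gene that was never on its low side would score 20 of 24 and 11 of 14 with TFF1, so the likeness rests on the 4 libraries in which TFF1 was lowest. The comparison ran over 165 candidate genes, all of them called genes, and both patterns come from the same libraries.

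SCTR, the receptor of the gut hormone secretin, was at 0.431 to 8.27 FPKM in PET, 5.69 to 9.37 FPKM in ETEC and 0.820 to 5.91 FPKM in CON. Its 4 lowest libraries were PET-5, CON-6, CON-1 and CON-5, with 0.431, 0.820, 0.914 and 1.24 FPKM, which are also the lowest 4 for TFF1. ONECUT2, a homeodomain transcription factor, had 0.0409 FPKM in PET-5 and a median of 10.4 FPKM in ETEC, against 3.87 FPKM in CON. ENPP3, an ectonucleotidase at the cell surface, was much more abundant per length, at 92.7 to 141 FPKM in ETEC and 4.22 to 90.8 FPKM in CON. The authors' deposited table called it higher in ETEC than in CON (adjusted p = 0.0320), which brought it into the table. On the same counts it was not called here (adjusted p = 0.0695, edgeR). PET spanned the ranges of ETEC and CON for ENPP3, with 2.91 FPKM in PET-5 and 271 FPKM in PET-4.

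**Figure D4:**
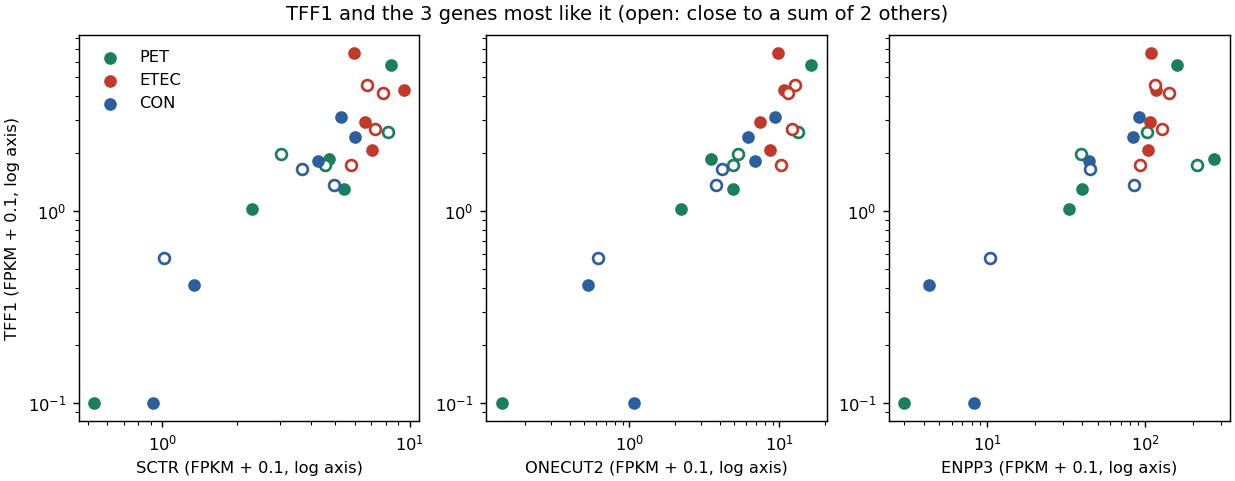
FPKM + 0.1 of TFF1 against that of SCTR, ONECUT2 and ENPP3, the 3 genes most like it, in the 24 libraries on log axes, with PET, ETEC and CON marked by colour and open points for libraries close to a sum of 2 others. In each panel the lower left holds PET-5, CON-1, CON-5 and CON-6, where both genes are low, and the ETEC libraries lie at the upper right.

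ITLN2 was highest in PET, but only in some of its libraries. PET libraries ran from 0.0943 to 63.9 FPKM with a median of 11.7. ETEC libraries ran from 0.0301 to 5.74 FPKM with a median of 0.958. CON libraries ran from 0 to 10.7 FPKM with a median of 1.85. PET-2, PET-3, PET-6 and PET-8, at 23.1, 33.4, 63.9 and 22.4 FPKM, lay above every ETEC and every CON library. The other 4 PET libraries, PET-1, PET-4, PET-5 and PET-7, had 0.209, 0.0943, 1.00 and 0.441 FPKM and lay within the range of both.

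Unlike B3GNT6, ITLN2 filled the range between low and high. Its largest step between neighbouring libraries was 2.11-fold, between 10.7 and 22.4 FPKM, and ranked 204 of 446 genes. It lay above its midrange of 2.43 FPKM in 9 of 24 libraries, which were 4 of PET, 2 of ETEC and 3 of CON, and above 1 FPKM in 15. Counts ran from 0 in CON-8 to 2011 in PET-6, and 3 counts in CON-8 would be 0.112 FPKM.

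ITLN2 averaged 18.1 ± 22.8 FPKM in PET, 1.78 ± 2.05 FPKM in ETEC and 3.64 ± 4.30 FPKM in CON (SD, n = 8 each), each with an SD above its mean. The log2 fold change of PET over ETEC, which chose the gene, was 3.34 ± 1.21 (SE). In PET over CON, which did not, it was 2.31 ± 1.16 (SE) and did not pass the test (adjusted p = 0.112, edgeR). The adjusted p of that contrast ran from 0.0526 in DESeq2 to 0.641 in edgeR with replicate numbers entered as blocks, and without PET-6 the log2 fold change was 1.66. ETEC over CON was -1.03 ± 1.12 (SE, adjusted p = 0.401, edgeR), with 2 CON libraries, CON-2 and CON-7 at 10.3 and 10.7 FPKM, above all of ETEC.

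Of the 4 high ITLN2 libraries of PET, 2 were close to sums that include PET-6. PET-2 was close to a sum of PET-6 and PET-7, with 30.1 FPKM of ITLN2 computed and 23.1 FPKM measured. PET-3 was close to a sum of PET-6 and PET-8, with 39.7 FPKM computed and 33.4 FPKM measured. Among the 14 libraries not close to a sum, ITLN2 was above its midrange in 2 of 5 PET, 1 of 4 ETEC and 2 of 5 CON libraries. The log2 fold change there was 3.31 ± 1.92 in PET over ETEC and 2.38 ± 1.69 in PET over CON (SE), the second with an adjusted p of 0.361 in edgeR.

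Within PET, brush border genes moved against ITLN2. PET-3, PET-6 and PET-8, with high ITLN2, had brush border sums of 46.3, 56.4 and 42.5 FPKM, and PET-2 had 466 FPKM. PET-1, PET-4, PET-5 and PET-7, with low ITLN2, had sums of 1809, 1966, 2470 and 783 FPKM. All ETEC libraries had sums as low as those of PET-3, PET-6 and PET-8, between 45.9 and 71.2 FPKM, and their highest ITLN2 was 5.74 FPKM. A low sum was thus found with and without high ITLN2, and its part in the difference between the groups was not tested.

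Few markers of other cell types are in the table to set beside ITLN2. Of 25 genes of the type 2 cytokine response of epithelium, CCL24, CCL26 and NOS2 are in the table, with summed levels of 5.81 to 91.2 FPKM in PET, 4.34 to 10.0 FPKM in ETEC and 6.30 to 137 FPKM in CON. In PET-2, PET-3, PET-6 and PET-8, with high ITLN2, the sums were 28.3, 7.15, 8.29 and 5.81 FPKM. In PET-1, PET-4, PET-5 and PET-7, with low ITLN2, they were 24.3, 20.9, 91.2 and 41.7 FPKM. Their part in the level of ITLN2 was not tested. Of 14 eosinophil and mast cell markers 1, CCR3, is in the table, at 0.141 to 12.8 FPKM in PET, 0.824 to 3.73 FPKM in ETEC and 2.50 to 9.80 FPKM in CON. Of 8 Paneth cell markers 1, MMP7, is in the table, at 0.0274 to 0.542 FPKM in PET, 0.153 to 1.93 FPKM in ETEC and 0.180 to 1.73 FPKM in CON.

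Among the genes most like ITLN2 by the same measure were NEFM and GDF15, on the same side of the midrange in 18 and 17 of 24 libraries, against 15 for a gene always on its low side. NEFM is a neurofilament of neurons and GDF15 a stress-induced cytokine. NEFM ran from 0.816 to 2.00 FPKM in PET, from 0.794 to 2.29 FPKM in ETEC and from 1.39 to 3.59 FPKM in CON, so its highest group was CON and it did not follow ITLN2 in level. In PET-6, where ITLN2 was highest, NEFM was 1.76 FPKM. In the 14 libraries NEFM and GDF15 scored 13 and 9 of 14, against 9 for a gene always low.

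Under the same measure no candidate gene scored above a gene that stayed low throughout when set against B3GNT6. The nearest, PADI2, a peptidylarginine deiminase, was on the same side in 18 of 24 libraries, and NETO2 and HOXB6 in 17, whereas a gene always on its low side would reach 18. In the 14 libraries the same 3 scored 11, 10 and 10, against 11 for such a gene. Of the 6 libraries with high B3GNT6, 5 had brush border sums of 50.3 to 59.4 FPKM, and CON-3, which was close to a sum that includes CON-4, had 558 FPKM. The libraries not close to a sum with brush border sums of 743 FPKM or more, PET-4, PET-5, PET-7, CON-5 and CON-6, all had low B3GNT6. A low sum was found with low B3GNT6 more often than with high. B3GNT6 was low in PET-3, PET-6, PET-8 and CON-7, with sums of 46.3, 56.4, 42.5 and 50.3 FPKM. It was also low in ETEC-2, ETEC-4, ETEC-5, ETEC-7 and ETEC-8, with sums of 53.8, 62.2, 45.9, 71.2 and 59.5 FPKM. The part of enterocyte content in the level of B3GNT6 was not tested.

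The 3 genes did not share a pattern across libraries. ETEC-8 had the highest TFF1 and ITLN2 of its group, at 6.58 and 5.74 FPKM, with B3GNT6 at 0.366 FPKM. ETEC-6 had the highest B3GNT6 of all libraries, at 96.9 FPKM, with the lowest ITLN2 of its group, at 0.0301 FPKM. PET-5 had no TFF1 reads and 1.00 FPKM of ITLN2. Over all libraries the medians were 0.375 FPKM for B3GNT6, 1.83 FPKM for TFF1 and 1.54 FPKM for ITLN2. In libraries at or below their own midrange, B3GNT6 ran from 0.171 to 0.874 FPKM and ITLN2 from 0 to 2.11 FPKM.

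Of the 9 contrasts of the 3 genes, 5 had not been called by the authors, and of these 5 tests 0 passed at an adjusted p under 0.05 in edgeR and in DESeq2. At an unadjusted p under 0.05 the number was 0 in edgeR and 1 in DESeq2, for ITLN2 in PET over CON. In the authors' deposited table, adjusted p was 0.964 for B3GNT6 and 0.479 for ITLN2 in ETEC over CON. It was 0.360 for TFF1 in PET over ETEC and 0.215 for ITLN2 in PET over CON, with none for TFF1 there. The 5 tests used the same counts and the same limit, so 0 passing was largely fixed beforehand and is no separate result. Over all 577 genes tested the same edgeR fit called 70.9% in ETEC over CON (171 higher and 238 lower), 47.0% in PET over ETEC (207 higher and 64 lower) and 41.4% in PET over CON (151 higher and 88 lower). With TMM scaling the split was 208 higher and 89 lower in ETEC over CON, and 76 higher and 86 lower in PET over ETEC. With DESeq2 size factors it was 201 and 157 in ETEC over CON, and 117 and 69 in PET over ETEC. With TMM the median change per gene in log2 fold change was 0.61, -0.62 and -0.02 in the 3 comparisons, in the order given. None of the 9 directions of the 3 genes changed with either scaling.

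**Figure D5:**
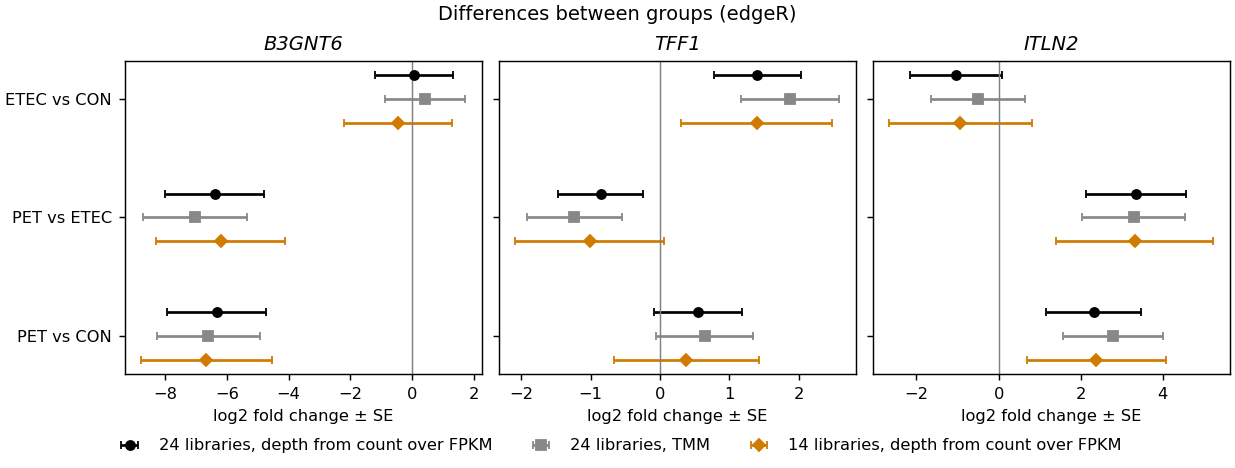
Log2 fold changes of B3GNT6, TFF1 and ITLN2 in ETEC over CON, PET over ETEC and PET over CON, as points with bars of 1 SE (edgeR), for 24 libraries with depth from count over FPKM (black), 24 libraries with TMM scaling (grey) and the 14 libraries not close to a sum (orange). In black, the 5 contrasts that did not choose a gene lie between -1.03 and 2.31, and 0 of them passed an adjusted p under 0.05. The authors had not called these 5 on the same counts, so this is not independent of their calls.

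By symbol, the table holds, besides these 3, 2 of the 101 genes of 4 mucus lists. The lists cover mucins, O-glycosylation enzymes, trefoil and goblet cell proteins and mucosal lectins. All lists used here were matched by symbol, which 240 of the 639 genes carry, so members without one are not counted. Mucin-13 and galectin-4 are on the lists, and loci without a symbol that were matched to them are described under other observations. B4GALNT3, which makes the LacdiNAc group on glycans, was higher in PET than in ETEC (log2 fold change 2.12, adjusted p = 0.0170, edgeR), at 0.0276 to 1.16 FPKM in PET and 0.0355 to 0.262 FPKM in ETEC. It is among the genes that the authors called in this contrast, so the test is not independent of the table. MBL2, the mannose-binding lectin that starts the lectin pathway of complement, was at most 0.814 FPKM in any library and did not pass the filter on low counts. The authors' deposited table called it lower in ETEC than in CON (log2 fold change -2.33, adjusted p = 0.0327). By symbol, 0 of 16 mucins and 0 of 20 trefoil and goblet cell proteins other than TFF1 are in the table. Apart from the locus matched to mucin-13, the level of mucins is not analysed here. Of 15 gastric epithelium markers 2, ANXA10 and CAPN8, are in the table, and they differed in opposite directions. ANXA10, an annexin, had medians of 0.550 FPKM in ETEC and 0.284 FPKM in CON, and was called higher in ETEC in the authors' deposited table (log2 fold change 1.30, adjusted p = 0.0235), the direction of TFF1. CAPN8, a calpain protease, had medians of 3.93 FPKM in ETEC and 10.0 FPKM in CON, and was called lower in ETEC in the authors' deposited table (-1.28). Their summed levels were 4.45 to 14.1 FPKM in PET, 3.03 to 5.96 FPKM in ETEC and 5.12 to 19.6 FPKM in CON, and their part in the level of TFF1 was not tested.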

How the data were processed

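Groups came from the sample titles. RNA came from a TRIzol extraction, per the labels' protocols, whose library text describes small RNA enrichment although the table is gene-level. Aligner, counter, annotation and build are not given here. The authors deposited, per the file headers, a read count per gene and library, FPKM for the same libraries, and, for 3 comparisons, log2 fold changes with p-values and adjusted p-values. The authors' calls have at least a 2-fold change and an adjusted p under 0.05.

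The members, lists and tests were chosen with earlier results of these data known. The test was the quasi-likelihood test of edgeR 4.0.16, run in R 4.3.3 (1 fit of the counts over 24 libraries, filterByExpr, Benjamini-Hochberg adjustment over 577 genes, threshold 0.05). Library sizes came from count divided by FPKM in genes of 20 or more counts, because TMM presumes mostly unchanged genes while this table holds only called ones. Relative depths were 0.820 to 1.28 in PET, 0.833 to 1.47 in ETEC and 0.706 to 1.08 in CON. SE is the log2 fold change over the square root of F. Likeness used 165 named genes averaging 1 FPKM or more, up to 3 given per member; some genes are not reported here. Sums were sought over 253 pairs of other libraries by non-negative weights (508 genes averaging 20 or more counts, none on chromosome Y and none a member), with a limit of 0.8 on the residual. Of 84 replicate pairs none agreed within sampling noise (lowest chi-square per gene 30.1). Alternatives were TMM, DESeq2 size factors, DESeq2 1.42.0, limma 3.58.1 with pseudocounts of 0.1 and 1, no filter, a replicate block, 14 libraries and leaving out each library. No identifier matched the reference table (0 of 364), so no sequence is printed.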

Additional observations from a re-analysis of the deposited data

Results flagged for a closer look

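TFF1 in PET-8 was 5.69 FPKM, and the next PET library was at 2.47 FPKM. The gap was 0.566 of the group's whole range, above Dixon's 95% critical value for 8 samples. Dixon's test was run on 9 groups, 3 genes in each of PET, ETEC and CON, and at the 95% level chance marks about 1 group in 20. PET-8 was not close to a sum of other libraries, and it had 43 TFF1 counts.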

How the results depend on the processing

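B3GNT6 in ETEC over CON had no stable direction: its log2 fold change was -0.60 and -0.20 in limma with pseudocounts of 0.1 and 1, -0.028 with the replicate block, -0.46 in the 14 libraries not close to a sum, and -0.55 to 0.63 when 1 library was left out. B3GNT6 in PET over ETEC was -2.62 and -2.12 in limma, -3.62 with the replicate block, and -6.59 to -5.78 with 1 library left out. In PET over CON it was -3.22 and -2.33 in limma, -3.65 with the replicate block, and -6.52 to -5.77 with 1 library left out. The other 6 log2 fold changes of the 3 genes kept their direction under all 8 alternatives and without any 1 library, and the 4 of them that were tested passed in none; TFF1 ran from 1.21 to 1.68 (ETEC over CON), -1.31 to -0.66 (PET over ETEC) and 0.09 to 0.83 (PET over CON), and ITLN2 from -1.57 to -0.56, 2.69 to 3.89 (PET over ETEC) and 1.66 to 2.78 (PET over CON), with 1 library left out. ITLN2 was 1.94 and 1.61 in limma (pseudocounts of 0.1 and 1) and 2.48 with the replicate block in PET over ETEC, and 1.07, 1.05 and 1.22 in PET over CON.

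Genes called were 0, 0 and 10 with the 14 libraries (ETEC over CON, PET over ETEC, PET over CON; edgeR), where 153, 163 and 156 had an unadjusted p under 0.05; the alternative has fewer samples. In PET over ETEC they were 162 with TMM and 171 in limma with a pseudocount of 1, against 271. With 1 library left out they were 369 to 447, 235 to 296 and 209 to 280. ITLN2 was above 1 FPKM in 15 libraries, against 9 above its midrange. Whether replicate numbers pair the libraries is not given by the labels. Same-numbered libraries correlated at -0.377 to 0.638, above 0.1 in 8 of 24 pairs, and 5 of 24 correlated best with their own number. These values do not settle whether the numbers mark something shared. With the replicate block the calls were 380, 185 and 179. Depth limits TFF1 most, at 0 to 55 counts per library.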

Other observations

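The 2 loci described here, without a symbol, were chosen after their values were seen, because the authors' table gives mucus-related proteins as their closest matches. ENSBGRG00000011657, matched to mucin-13, a membrane mucin of the intestinal epithelium, lies on chromosome 1 from 75196448 to 75215607. It was at 75.9 to 293 FPKM in PET, 118 to 300 FPKM in ETEC and 31.3 to 141 FPKM in CON. The authors' deposited table called it higher in ETEC than in CON, with a log2 fold change of 1.38. ENSBGRG00000016279, matched to galectin-4, an intestinal lectin, lies on chromosome 26 from 44098993 to 44100253. It was at 0.184 to 1.79 FPKM in PET, 0.546 to 4.40 FPKM in ETEC and 0.172 to 1.31 FPKM in CON. The authors' deposited table called it higher in ETEC than in CON (log2 fold change 1.85) and lower in PET than in ETEC (-1.56). Like TFF1, both thus had their highest median in ETEC, at 235 and 1.79 FPKM, against 88.1 and 0.468 FPKM in CON.

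GALNT15, an enzyme of the family that starts O-glycosylation, is in the table but in none of the 4 mucus lists, and was also chosen after its values were seen. It was at 0.355 to 1.22 FPKM in PET, 0.395 to 1.14 FPKM in ETEC and 0.856 to 2.26 FPKM in CON. The authors' deposited table called it lower in PET than in CON (log2 fold change -1.05, adjusted p = 0.00269). In ETEC over CON the authors' deposited table gave -0.81 with an adjusted p of 0.00369, not called because the change was under 2-fold. From the same counts edgeR gave -0.87 ± 0.28 (SE, n = 8 each, adjusted p = 0.0107), which is not a separate test. In that comparison edgeR called 70.9% of the genes tested.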
